A study of Mus musculus with 6 samples.

Results

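H3K27me3 was compared on the mouse autosomes between wt and wt+TNFα colonic organoids. All peaks of both deposited H3K27me3 lists that lie on the 19 autosomes were taken. They numbered 79309 of the 91134 H3K27me3 peaks and of the 114580 peaks in all 4 lists of the series, with 30347 in wt and 48962 in wt+TNFα. The organoids were cultured from colon epithelial cells of C57BL/6 mice, and those called wt received no TNFα. Those called wt+TNFα were of the same genotype and received 40 ng/ml of TNFα, an inflammatory cytokine, for 3 weeks. Each condition had 1 H3K27me3 library, 1 H3K4me3 library and 1 input. With 1 library a side there was no replicate error, so each difference below is that between 2 libraries, with no test and no p-value.

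H3K27me3, trimethylation of lysine 27 on histone H3, is written by Polycomb repressive complex 2, whose catalytic subunit is Ezh2 or Ezh1. The mark lies over genes that a cell lineage keeps silent, often developmental regulators with promoters rich in CpG dinucleotides. It can occupy a single promoter or spread over a whole gene cluster as a broad domain. H3K4me3 marks the promoters of active genes, and a promoter that carries both marks is called bivalent.

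The markers of the labelled cell type fitted the label. None of the 12 epithelial identity genes, among them Epcam, Cdh1, Krt8, Cdx2 and Vil1, had H3K27me3 over a promoter in either list. All 12 carried an H3K4me3 peak in wt and 11 did in wt+TNFα, where Krt20 had none. Of 19 markers of blood, vessel, stroma, muscle, glial and nerve cells, none had a promoter H3K4me3 peak in either condition, and 13 in wt and 14 in wt+TNFα had H3K27me3 there. Off the autosomes the libraries stood far apart. Chromosome X had 0.597 Mb under H3K27me3 in wt but 74.7 Mb in wt+TNFα. Chromosome Y held 3 H3K4me3 peaks of the wt list and 0 of the wt+TNFα list. The labels name no sex or animal for either culture, and the part of such a difference in the autosomal values was not tested.

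The promoters of 6 genes, 2 of each kind, show the sequences over which the mark differed or was shared. They are the RefSeq promoters (GRCm38.p6) of 250 bases before to 50 bases after the start, 5′ to 3′ on the strand of the gene, with CpG dinucleotides (CG) in capitals. The Pdx1 promoter (chr5:147269847-147270146, plus strand) and the H2-T3 promoter (chr17:36190102-36190401, minus strand) lay under no wt peak and wholly under a wt+TNFα peak. Pdx1 encodes a homeodomain factor of the pancreas and duodenum, and H2-T3 a nonclassical MHC class I protein.
Pdx1: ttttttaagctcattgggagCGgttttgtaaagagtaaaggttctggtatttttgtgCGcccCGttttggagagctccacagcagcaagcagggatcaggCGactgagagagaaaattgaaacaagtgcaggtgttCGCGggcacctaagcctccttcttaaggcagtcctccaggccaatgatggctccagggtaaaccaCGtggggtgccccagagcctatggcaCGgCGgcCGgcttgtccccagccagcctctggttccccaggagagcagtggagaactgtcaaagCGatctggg
H2-T3: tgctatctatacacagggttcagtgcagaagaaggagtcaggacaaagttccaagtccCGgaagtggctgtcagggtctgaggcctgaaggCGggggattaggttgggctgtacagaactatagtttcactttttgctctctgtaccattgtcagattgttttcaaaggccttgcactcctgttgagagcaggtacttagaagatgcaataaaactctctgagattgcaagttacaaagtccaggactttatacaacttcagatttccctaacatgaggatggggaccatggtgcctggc

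The promoters of Evx2 (chr2:74659508-74659807, minus strand) and Hoxd13 (chr2:74667975-74668274, plus strand), neighbouring homeobox genes at the end of the Hoxd cluster, lay under 1 wt peak and under no wt+TNFα peak.
Evx2: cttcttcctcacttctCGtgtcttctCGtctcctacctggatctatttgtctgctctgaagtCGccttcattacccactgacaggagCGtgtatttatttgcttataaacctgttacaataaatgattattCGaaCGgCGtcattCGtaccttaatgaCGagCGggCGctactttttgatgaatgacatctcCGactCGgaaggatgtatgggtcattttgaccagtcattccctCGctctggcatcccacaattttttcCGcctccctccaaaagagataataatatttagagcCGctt
Hoxd13: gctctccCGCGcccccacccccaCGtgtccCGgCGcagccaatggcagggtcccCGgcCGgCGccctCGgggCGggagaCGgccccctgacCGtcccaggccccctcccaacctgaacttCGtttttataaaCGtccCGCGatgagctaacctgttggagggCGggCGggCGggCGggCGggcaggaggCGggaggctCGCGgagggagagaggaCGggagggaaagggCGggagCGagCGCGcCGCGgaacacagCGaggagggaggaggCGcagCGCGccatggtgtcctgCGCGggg

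The promoters of the homeobox genes Hmx2 (chr7:131548507-131548806, plus strand) and Hmx3 (chr7:131542713-131543012, plus strand) lay under a single peak in each list.
Hmx2: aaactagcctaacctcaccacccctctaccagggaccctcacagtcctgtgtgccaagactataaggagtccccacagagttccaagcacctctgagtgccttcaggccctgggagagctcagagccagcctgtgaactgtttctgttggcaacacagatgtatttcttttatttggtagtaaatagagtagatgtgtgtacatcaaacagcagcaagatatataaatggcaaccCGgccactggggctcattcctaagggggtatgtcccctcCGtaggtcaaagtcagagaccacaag
Hmx3: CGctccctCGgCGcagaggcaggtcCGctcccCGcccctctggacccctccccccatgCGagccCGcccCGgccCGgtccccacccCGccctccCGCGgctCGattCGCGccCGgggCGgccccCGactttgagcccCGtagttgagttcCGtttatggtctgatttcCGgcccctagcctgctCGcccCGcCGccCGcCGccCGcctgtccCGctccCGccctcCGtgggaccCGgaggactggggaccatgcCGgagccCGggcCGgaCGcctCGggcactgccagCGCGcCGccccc

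These 300-base windows held 11 CpG at Pdx1, 2 at H2-T3, 16 at Evx2, 37 at Hoxd13, 2 at Hmx2 and 39 at Hmx3. The motif is 2 letters long and reads the same on both strands. At least 1 CG was present in 94.8% of all 31396 autosomal RefSeq promoters of that length, and their median was 7. The Hoxd13 and Hmx3 windows therefore held more CG than 94.2% and 95.4% of promoters, while Hmx2 and H2-T3 exceeded 13.8%.

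The wt list covered 101.5 Mb of the autosomes (4.12%) and the wt+TNFα list 227.9 Mb (9.26%), a ratio of 2.25. A spike-in is mentioned in the name of the wt list and not in that of the wt+TNFα list, and a difference in scaling between the lists and one between the cultures cannot be told apart. Of the wt bases 86.5% were also covered in wt+TNFα, and of the wt+TNFα bases 38.5% were also covered in wt. Thus 87.7 Mb were shared, 13.7 Mb were covered in wt alone and 140.2 Mb in wt+TNFα alone. The 2 values listed with each broad peak, 1 of each for the whole peak, went opposite ways. By −log10 q the wt peaks were lower, with a median of 0.778 against 1.33 for wt+TNFα and 12.8% against 21.6% of peaks at 2 or more. The paper states that level as its threshold for the calls, so a listed value is not the significance of the call. As peak widths differed between the lists, these values are not like for like. The median fold enrichment, the ratio of ChIP signal to the local background drawn from the input, was 2.10 in wt and 1.90 in wt+TNFα. A fold enrichment below 1.96, under which 10.0% of wt peaks lay, was found for 61.8% of wt+TNFα peaks and 29.0% of their length. Above that level the wt list covered 97.9 Mb and the wt+TNFα list 161.8 Mb, a ratio of 1.65. The lowest fold enrichment was nearly the same in both lists, at 1.63 in wt and 1.61 in wt+TNFα, whereas the lowest −log10 q was 0.302 and 0.747.

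Promoters, taken as 1000 bp on each side of all transcript starts, had the smallest ratio of the 3 compartments in the full lists. Their covered length of 14.2 Mb in wt compared with 21.8 Mb in wt+TNFα, a ratio of 1.53. Over gene bodies outside promoters it was 44.3 Mb and 101.8 Mb, a ratio of 2.30, and over intergenic space 42.9 Mb and 104.4 Mb, a ratio of 2.43. Promoters were the most densely covered compartment, at 9.46% in wt and 14.5% in wt+TNFα, against 4.23% and 9.72% for gene bodies and 3.395% and 8.25% for intergenic space. Their share of the list was nevertheless smaller in wt+TNFα, at 9.55% against 14.0% in wt. The wt bases were also covered in wt+TNFα most fully at promoters (90.7%), followed by gene bodies (86.7%) and intergenic space (84.9%). For each base covered in wt alone, 6.71 bases were covered in wt+TNFα alone at promoters, 10.8 in gene bodies and 10.4 in intergenic space. At equal covered length, with the least significant wt+TNFα peaks left out and all wt peaks kept, the ratio over all autosomes is fixed at 1.00. The ratios of the compartments were then 0.979 for promoters, 1.04 for gene bodies and 0.969 for intergenic space. With the total fixed, these ratios have to lie around 1, so they cannot show whether the direction held. The order of the compartments was not that of the full lists.

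**Figure D1:**
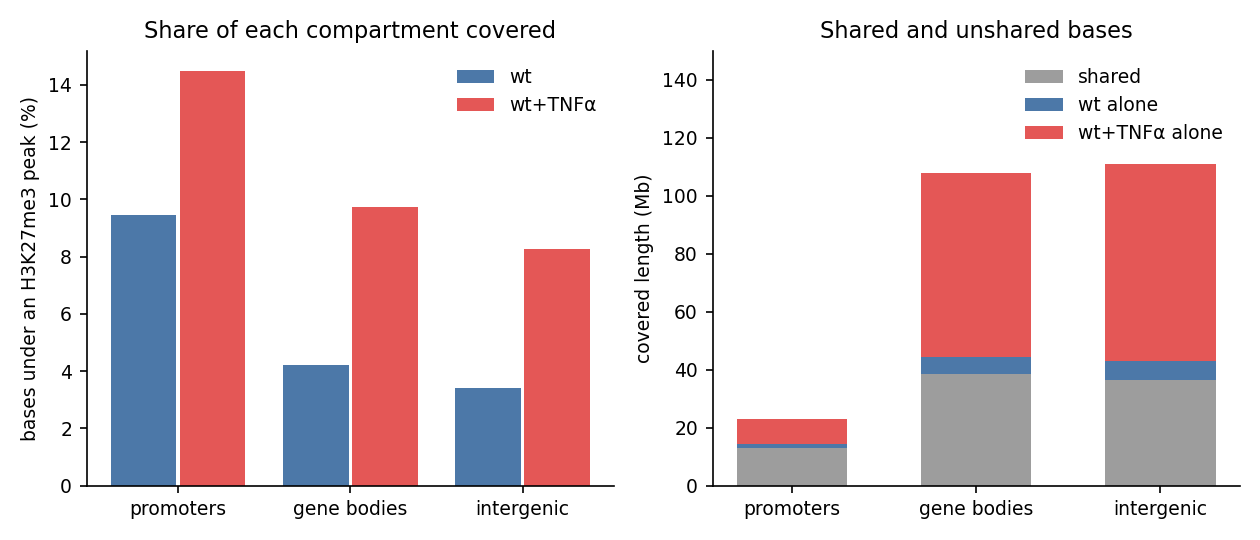
Left, the percentage of promoter, gene body and intergenic bases under an autosomal H3K27me3 peak in wt (blue) and wt+TNFα (red), 1 library each; right, the covered length in Mb that was shared (grey), in wt alone (blue) or in wt+TNFα alone (red). Promoters were the most densely covered in both lists, with a ratio of 1.53 against 2.30 for gene bodies and 2.43 for intergenic space (0.979, 1.04 and 0.969 at equal covered length).

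Each of the 19 autosomes was covered over a greater length in wt+TNFα. The ratio ran from 1.86 on chromosome 19 to 2.65 on chromosome 16, with a median of 2.27. Chromosome 11 was the most covered in both conditions, at 6.81% in wt and 13.7% in wt+TNFα, and chromosome 16 the least, at 2.24% and 5.93%. The share of wt bases also covered in wt+TNFα was lowest on chromosome 3 (78.6%) and highest on chromosome 11 (89.8%). In windows of 1 Mb, 1956 of 2454 windows (79.7%) held more H3K27me3 in wt+TNFα, 73 (2.97%) held less, and 425 held none in either list.

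**Figure D2:**
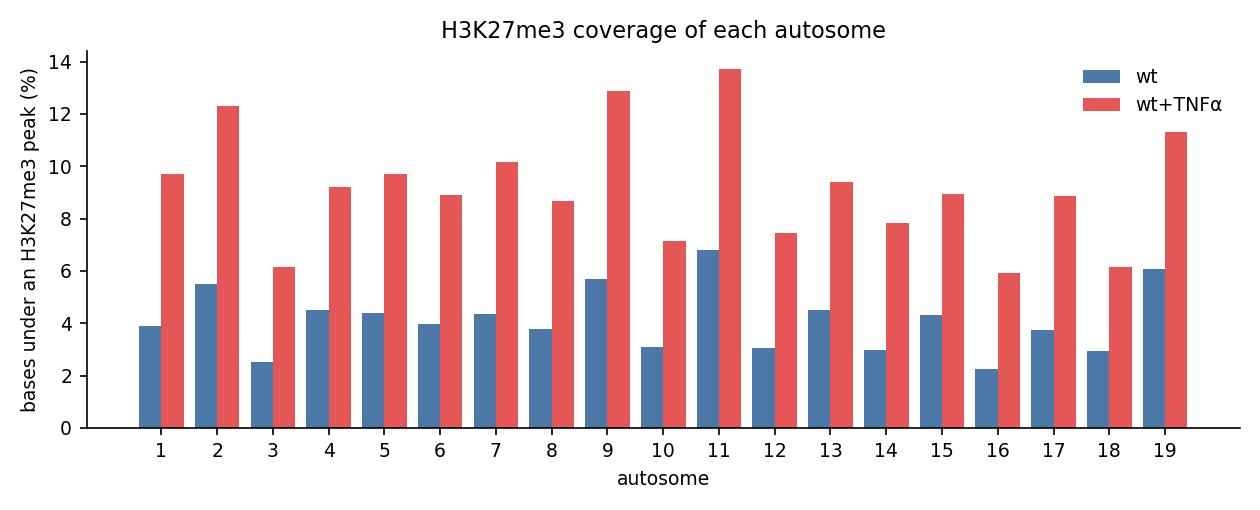
The percentage of each autosome under an H3K27me3 peak in wt (blue) and wt+TNFα (red), 1 library each. All 19 autosomes were covered more in wt+TNFα, from 5.93% on chromosome 16 to 13.7% on chromosome 11.

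Domains were wider in wt+TNFα. The median width was 1778 bp in wt and 2209 bp in wt+TNFα, and the mean was 3343 bp and 4655 bp. The ratio of widths was greater among wide domains, with 1.24 at the median, 1.49 at the 90th percentile and 1.59 for the N50, the width above which domains hold 50% of the covered length (6006 bp and 9539 bp). Domains of at least 10 kb numbered 1775 in wt and 5408 in wt+TNFα, and held 32.8% and 48.4% of the covered length. Domains of at least 50 kb numbered 53 and 230, and those of at least 100 kb numbered 6 and 17.

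**Figure D3:**
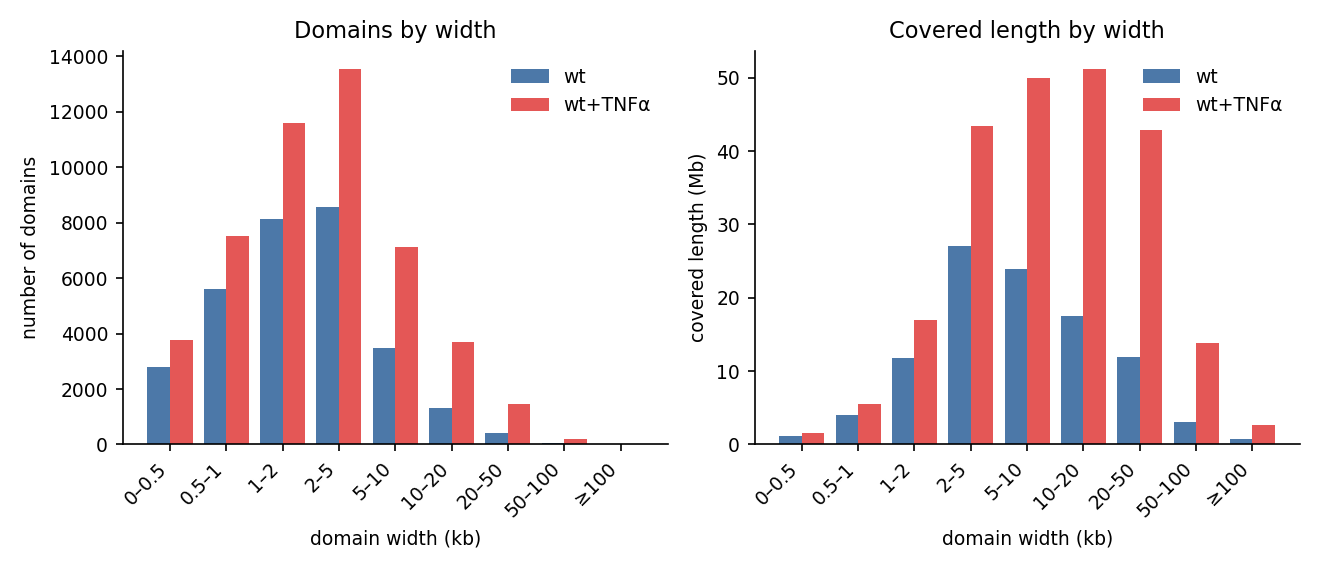
The number of autosomal H3K27me3 domains (left) and their covered length in Mb (right) by domain width in kb, in wt (blue) and wt+TNFα (red), 1 library each. Every width class held more domains in wt+TNFα, and the 5408 domains of at least 10 kb held 48.4% of its covered length against 32.8% in wt.

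The width of a domain went with its presence in the other list. Of wt domains under 1 kb 71.2% overlapped a wt+TNFα domain, and of those of at least 50 kb 100% did. Among wt+TNFα domains the overlap with wt was 9.43% under 1 kb, 38.97% from 2 to 5 kb and 100% from 50 kb. The strongest 25% of wt+TNFα domains by fold enrichment, from 2.05 upward, overlapped wt in 79.7% of cases and the weakest 25%, up to 1.80, in 9.93%.

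In all, 25835 of 30347 wt domains (85.1%) touched a wt+TNFα domain, and 4512 had no counterpart. Of 48962 wt+TNFα domains, 30363 (62.0%) had no wt counterpart. Joining was more frequent than splitting. In wt+TNFα, 4685 domains joined 2 or more wt domains and took up 12528 wt domains (41.3% of all), whereas 613 wt domains (2.02%) were split into 2 or more wt+TNFα domains. With a −log10 q of at least 2 in both lists, 204 domains joined and 79 were split. The joining domains were the wide ones, with a median width of 14673 bp, and 70.0% of them had a −log10 q of at least 2. The 7905 gaps that they filled had a median length of 2409 bp and a longest of 26697 bp. The 669 gaps opened inside split wt domains had a median of 1808 bp and a longest of 40939 bp. No neighbouring peaks of a list lay closer than 1465 bp in wt or 1441 bp in wt+TNFα, so no shorter gap could be seen.

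The domains that met only 1 domain of the other list, 12993 pairs, were mostly wider in wt+TNFα. The wt+TNFα member was wider in 82.2% of pairs and extended past both wt edges in 56.8%, whereas in 7.17% it lay inside both. The median width was 1892 bp for the wt members and 4345 bp for the wt+TNFα members, the median of the ratios was 1.85, and an edge lay at the median 704 bp further out. Fold enrichment is 1 value for a whole peak, so in pairs of unequal width it was not taken over the same bases. Its median was 2.11 for the wt members against 2.02 for the wt+TNFα members, and the latter had the higher value in 34.6% of pairs. Whether enrichment differed over the bases that both members of a pair cover was not tested.

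Of the 140.2 Mb covered in wt+TNFα alone, 61.8 Mb (44.1%) lay in domains with no wt counterpart, 53.2 Mb (37.9%) at the edges of shared domains and 25.2 Mb (18.004%) in gaps between joined wt domains. Of the 13.7 Mb covered in wt alone, 5.68 Mb (41.5%) were whole wt domains, 6.46 Mb (47.1%) edges and 1.56 Mb (11.4%) the inside of split domains. Domains with no counterpart were narrow and few held a transcript start in both lists. The median width was 927.5 bp for those of wt and 1437 bp for those of wt+TNFα, a transcript start lay in 6.49% and 5.95%, against 18.2% and 16.0% of all domains, and 56.3% and 57.0% were more than 10 kb from one, against 44.7% and 49.5% of all domains.

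**Figure D4:**
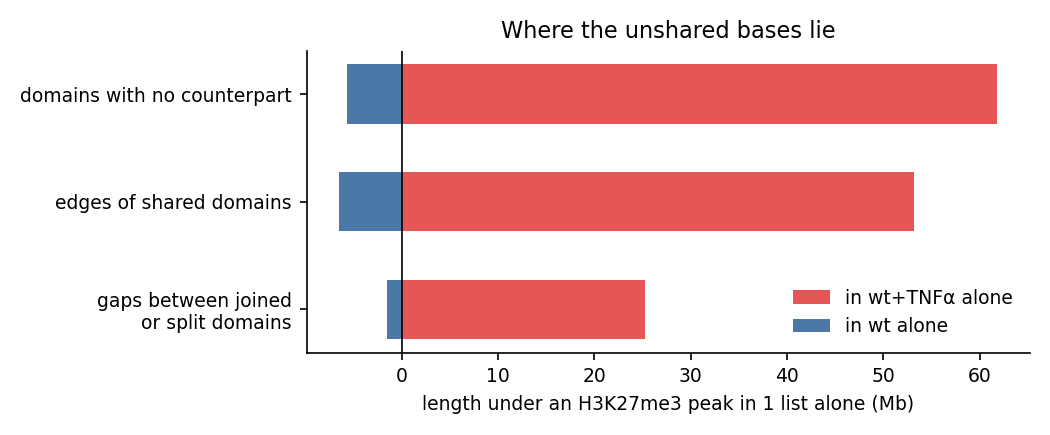
The length in Mb under a peak of 1 list alone, with wt+TNFα to the right (red) and wt to the left (blue), by place: domains with no counterpart in the other list, edges of shared domains, and gaps between domains that were joined or split. Domains with no wt counterpart held 61.8 Mb and edges 53.2 Mb of the length in wt+TNFα alone.

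The Hoxc cluster, which holds homeobox genes of body patterning, carried the widest domain of each list. In wt it lay at chr15:102898716-103126818, 228103 bp wide with a fold enrichment of 3.95, and covered the starts of 9 Hoxc genes. In wt+TNFα it lay at chr15:102728407-103125715, 397309 bp wide with a fold enrichment of 4.58. The wt+TNFα domain took up 19 wt domains, of which the narrowest was 447 bp, and 99.5% of the wt domain lay in it. The promoters of all 9 Hoxc genes were whole in both lists.

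Among the other widest domains, the wt domain at chr13:52697916-52818452 (120537 bp) held no protein-coding start or body, and 98.2% of it was covered in wt+TNFα. Uncx, a homeobox gene of the axial skeleton and nervous system, had a wt domain of 114072 bp that lay whole within a wt+TNFα domain of 151024 bp joining 4 wt domains. Lmx1b, a LIM homeobox gene of limb and brain, had a wt+TNFα domain of 177291 bp joining 4 wt domains. At chr15:101735450-101856173, 14 wt domains over the type II keratin genes Krt71, Krt72, Krt73, Krt2 and Krt1 met a single wt+TNFα domain of 120724 bp. At chr5:30517168-30607992, 12 wt domains met 1 of 90825 bp over Cib4 and the potassium channel gene Kcnk3. In these last 2 regions the gaps between the wt domains had medians of 1686 and 2349 bp.

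The converse was seen at fewer places. Fam20c, which encodes a kinase of secreted proteins, lay under a wt domain of 77243 bp (chr5:138714733-138791975). In wt+TNFα only 5 pieces of 438 to 3079 bp were left there, covering 11.3% of it. Vav2, which encodes a guanine nucleotide exchange factor, started in a wt domain of 84128 bp (chr2:27353197-27437324), of which 4 pieces covering 15.6% were left, with gaps of up to 40939 bp. Another wt domain inside the same gene, 29758 bp wide, had no wt+TNFα counterpart. The widest wt domain without a counterpart, 32984 bp at chr4:88930219-88963202, held no protein-coding start and had 1 H3K4me3 peak in wt and 3 in wt+TNFα. Map6 and Map4k4 had wt domains of 22649 bp and 21183 bp in their bodies with no wt+TNFα domain there.

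The widest wt+TNFα domain without a wt counterpart was 41093 bp (chr1:90305908-90347000) and held no protein-coding start. The fifth widest, 25938 bp at chr14:79972185-79998122 with a fold enrichment of 2.73, covered the start of Olfm4, a secreted glycoprotein and marker of stem cells in the small intestine. Of the promoter of Olfm4, 0% lay under a peak in wt and 49.4% in wt+TNFα, and it had no H3K4me3 peak in either condition.

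Gene promoters were classed by the percentage of their bases under a peak. A difference of at least 50 percentage points was called a gain or a loss. Among all 51229 autosomal genes, 2610 (5.09%) had a gain in wt+TNFα and 275 (0.537%) a loss. Among the 20807 protein-coding genes, 810 (3.89%) had a gain and 107 (0.514%) a loss. Promoters of 2295 genes were whole in both lists and those of 39682 were bare in both. This excess of gains was not seen at equal covered length: when the least significant wt+TNFα peaks were left out until both lists covered the same length, 737 genes had a gain and 868 a loss. At the threshold itself, Acaa1b went from 50% to 100% and Agtr1a, just outside, from 50.04% to 100%, while Entpd3 went from 50% to 0% and Cmtm7, just outside, from 50.3% to 0.745%.

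The 10 protein-coding genes with a promoter bare in wt and whole in wt+TNFα and the highest wt+TNFα fold enrichment were, in order, Pdx1, H2-T3, Creb3l1, Slc5a8, Pla2g1b, Camk2n1, Vsig2, Fzd4, Tmem239 and Cfap221. They came from 142 such genes, and their fold enrichments ran from 4.26 at Pdx1 to 2.70 at Cfap221. At Pdx1 (chr5:147269959-147275848) the wt mark was close by, since 50.1% of the gene body was covered in wt and 100% in wt+TNFα. Creb3l1 (chr2:91982328-92024502), a transcription factor of the secretory pathway in goblet cells, had no wt mark in promoter or body and 66.7% of its body covered in wt+TNFα. Slc5a8 (chr10:88885992-88929515), a colonic transporter of short-chain fatty acids, was bare in wt and had 100% of the promoter and 5083 bp of the body covered in wt+TNFα. Fzd4, a receptor for Wnt ligands and norrin, was bare in wt and had 3537 bp of the body covered in wt+TNFα.

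At the opposite end 21 genes were whole in wt and bare in wt+TNFα, and those named among the first 10 of them were Evx2, Hoxd13, Hoxb3, Hoxb5, Hoxb6, Bmp3, Wwtr1, Lor and Ikzf2. The first 2 lay under 1 wt peak of fold enrichment 4.06, and the 3 Hoxb genes under 1 of 3.66, so these 9 genes stand for 6 peaks. Bmp3 (chr5:98854415-98884396), a growth factor of the BMP family, lay under a wt peak of 3.50. Wwtr1 (chr3:57455649-57575910) encodes TAZ, a co-activator of the Hippo pathway, and its wt peak had a fold enrichment of 3.10. Lor, which encodes the cornified envelope protein loricrin, lay wholly in a wt domain of 20036 bp. Ikzf2, a zinc finger factor of the Ikaros family, had a wt peak of 2.59.

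H3K4me3, measured with another antibody in other libraries of the same cultures, differed most at promoters with a loss. Of the 107 protein-coding promoters with a loss of H3K27me3, 35 (32.7%) had an H3K4me3 peak in wt and 60 (56.1%) in wt+TNFα. The 25 with a peak in wt+TNFα alone made up 23.4%, against 1.4995% (312 of 20807) of all protein-coding genes, and 0 had one in wt alone. Of the 810 promoters with a gain, 70 (8.64%) had an H3K4me3 peak in wt and 64 (7.90%) in wt+TNFα. There, the covered share of H3K4me3 was lower in wt+TNFα at 51 and higher at 23, whereas among all protein-coding genes it was lower at 2790 and higher at 7817. No test was made of these shares, as each mark had 1 library a side.

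Single genes were then picked after their values were seen, by another measure than these counts, an H3K4me3 difference of at least 20 points the other way. A loss of H3K27me3 with such a gain of H3K4me3 was found at 25 of 101 genes (24.8%), leaving out Gm and Rik symbols, and such a gain of H3K4me3 at 1.23% of all 19040 protein-coding genes so chosen. Nos2 (chr11:78920787-78960254), the inducible nitric oxide synthase, had 53.8% of its promoter under H3K27me3 in wt and 0% in wt+TNFα, while H3K4me3 covered 0% and 76.1%. Icam1 (chr9:21015985-21028817), an adhesion molecule induced by NF-kB, had 52.0% and 0% under H3K27me3 and 0% and 58.1% under H3K4me3. At Lor the H3K4me3 share was 0% and 53.1%. Wwtr1 differed from these in having H3K4me3 under the wt mark already, at 36.6% in wt and 78.8% in wt+TNFα. Plau, the urokinase plasminogen activator, had 87.8% and 0% under H3K27me3 and 0% and 41.4% under H3K4me3. Pthlh, parathyroid hormone-like hormone, had 100% and 9.22% under H3K27me3 and 0% and 47.9% under H3K4me3.

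The converse pattern was found at 9 of 713 genes (1.26%, against 0.394% of all with such a loss of H3K4me3), among them 3 transporter genes of the epithelium. At Slc5a8 the H3K4me3 share was 67.5% in wt and 0% in wt+TNFα. Slc7a8, an amino acid transporter, had 0% and 100% under H3K27me3 and 58.7% and 25.9% under H3K4me3. Slc9a3 (chr13:74121457-74169442), the apical sodium-proton exchanger of absorptive cells, had 0% and 94.6% under H3K27me3 and 47.7% and 16.95% under H3K4me3. Fzd4 kept most of its H3K4me3, at 100% and 77.3%, and Socs2, an inhibitor of cytokine signalling, had 39.5% and 18.1%. At Pdx1, Creb3l1 and Camk2n1 H3K4me3 remained beside the mark, with 41.4%, 56.1% and 64.1% in wt+TNFα.

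**Figure D5:**
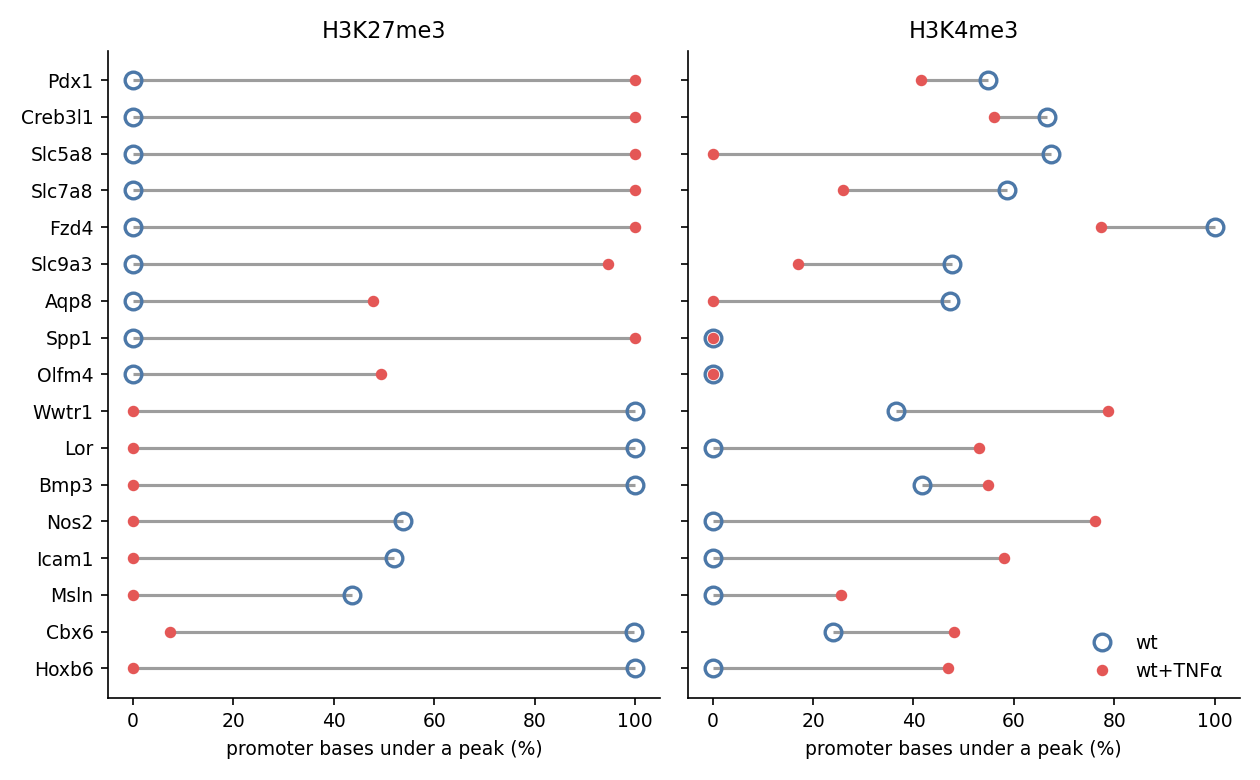
For 17 named genes, the percentage of promoter bases under an H3K27me3 peak (left) and under an H3K4me3 peak (right) in wt (blue circles) and wt+TNFα (red points), 1 library per mark and condition. Lor, Nos2 and Icam1 had H3K27me3 in wt alone and H3K4me3 in wt+TNFα alone, and Slc5a8 had the reverse.

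Gene lists of the colon epithelium were then read against the 3.89% of protein-coding genes with a gain and the 0.514% with a loss. At equal covered length, where only wt+TNFα peaks were left out, 243 of the 20807 had a gain and 338 a loss. Of all 20807 protein-coding genes, 22.3% had promoter H3K27me3 in wt and 27.5% in wt+TNFα, and the covered share was greater in wt+TNFα at 3660 and smaller at 823. Of 20 absorptive colonocyte genes, 3 had promoter H3K27me3 in wt and 6 in wt+TNFα, 5 had a greater covered share in wt+TNFα and none a smaller one, and 1 passed 50 points (Slc9a3). Aqp8 (chr7:123462291-123468004), a colonic water channel, had 0% in wt and 47.9% in wt+TNFα, and its H3K4me3 share was 47.4% and 0%. Other members went the other way in H3K4me3, among them Guca2a, the peptide guanylin (0% and 49.1%), and Scnn1a, a subunit of the epithelial sodium channel (18.8% and 52.6%), and 9 of the 20 had an H3K4me3 peak in wt and 11 in wt+TNFα. For H3K27me3, Car4, a carbonic anhydrase, had 53.7% and 80.5%, and Scnn1b, another subunit of that channel, 68.5% and 100%. Of 13 goblet cell genes, 4 were covered in wt and 6 in wt+TNFα. Creb3l1 was the 1 gain, while Atoh1, the factor that specifies secretory cells, had 66.9% and 44.2%, and Zg16, a secreted lectin, 37.3% and 4.77%.

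Enteroendocrine genes, which belong to a rare hormone-producing lineage, were mostly covered in both conditions. Of 19 genes, 16 had promoter H3K27me3 in wt and 17 in wt+TNFα, and 11 were whole in both. The median of the covered gene body was 77.8% in wt and 93.9% in wt+TNFα. The 3 gains were Chga, a granule protein (42.4% and 100%), Sst, somatostatin (45.6% and 100%), and Scg3, a secretogranin (0% and 54.5%). At equal covered length 1 of these gains was left. Isl1, a LIM homeobox factor, had a smaller share in wt+TNFα, at 86.1% and 68.1%. Of 13 tuft cell genes 8 were covered in each list, with a greater share in wt+TNFα at 4 and a smaller one at 3. Pou2f3, the factor that specifies tuft cells, had 77.9% and 100%, and Ptgs1, a cyclooxygenase, 26.99% and 0%.

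Of 13 regenerative and fetal-like epithelium genes, 4 were covered in wt and 2 in wt+TNFα, with a greater share in wt+TNFα at 1 and a smaller one at 4. Wwtr1 was a loss, Msln, mesothelin, had 43.6% and 0% with an H3K4me3 share of 0% and 25.6%, and Spp1, osteopontin, was the 1 gain (0% and 100%) and had no H3K4me3 in either condition. At equal covered length this list had 0 gains and 2 losses. Of 38 TNF and NF-kB response genes, 6 were covered in wt and 4 in wt+TNFα, and 32 were bare in both. Icam1 and Nos2 were the losses and Csf2, which encodes the cytokine GM-CSF, the gain (46.2% and 100%), which was not seen at equal covered length, where this list had 0 gains and 2 losses. The number of these 38 genes with an H3K4me3 peak was 22 in wt and 28 in wt+TNFα, while over all protein-coding genes the share was 51.8% and 52.6%. Of 22 crypt stem cell genes, 8 and 9 were covered, with 0 gains and 1 loss. The loss was Ascl2, a transcription factor of crypt stem cells (90.8% and 39.4%). Lgr5, an R-spondin receptor that marks crypt stem cells, had 36.4% of its promoter covered in both, with 3771 bp of its body in wt and 24654 bp in wt+TNFα. Nkd1, an inhibitor of Wnt signalling, had 33.3% and 58.8% of its promoter and 4617 bp and 32260 bp of its body covered.

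Of 31 genes for Polycomb proteins and their partners, 7 were covered in wt and 8 in wt+TNFα, and 30 had an H3K4me3 peak in each condition. The covered share was greater in wt+TNFα at 3 and smaller at 4, and the members named here are all of the latter. Cbx6, a chromodomain subunit of Polycomb complex 1, was the 1 loss, with 99.9% and 7.33%, and its H3K4me3 share was 23.9% and 48.0%. Bmi1, a ring finger subunit of the same complex, had 52.7% and 23.4%. Cbx7 had 30.4% and 19.9% of its promoter covered but 22185 bp and 29793 bp of its body. Of 26 senescence and cell cycle genes, 8 were covered in each list and 2 had a loss. Slc25a4, the mitochondrial carrier for ADP and ATP, had 80.35% and 0%, with an H3K4me3 share of 38.9% and 55.8%. Cdkn1c, an inhibitor of cyclin-dependent kinases, had 54.0% and 100%.

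Developmental regulators were mostly covered whole in both lists, so that a gain could hardly be seen there. Of 106 developmental transcription factors outside the Hox clusters, 101 were covered in wt and 100 in wt+TNFα, 90 were whole in both, 91 had the same covered share, and 0 had a gain or a loss of 50 points. The largest differences were at Eomes, a T-box factor (100% and 56.2%), Gata4, a factor of heart and foregut (69.7% and 100%), and Pax5, a factor of B cells (53.9% and 76.9%). The bodies of 31 (29.2%) were covered further in wt+TNFα and of 6 less, near the 26.8% of all protein-coding genes with more. At Pax5 the covered body was 56793 bp in wt and 115893 bp in wt+TNFα. An H3K4me3 peak lay at the promoters of 20 of the 106 genes in wt and of 14 in wt+TNFα, against 51.8% and 52.6% of all protein-coding genes.

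The promoters with the highest fold enrichment among those whole in both lists were Scrt1, Tlx2, Hmx2, Hmx3, Cilp2, Skor1, Dhh, Tmem121b, Foxl2 and Nxph4, of 1108 such genes. Their fold enrichments lay between 4.58 and 5.41 in wt and between 4.59 and 6.12 in wt+TNFα, where 8 of the 10 were higher (all except Tmem121b and Foxl2). Scrt1, a zinc finger repressor of neurons, had 5.41 and 5.96, and Skor1, a co-repressor of the nervous system, 4.77 and 6.12. Dhh, the hedgehog ligand of Schwann and Sertoli cells, had 4.72 and 5.09, and Foxl2, the forkhead factor of the ovary, 4.84 and 4.59.

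Gene bodies were ranked by the number of bases that differed, which favours long genes. Fgfr2, a receptor for fibroblast growth factors, had 351845 bp covered in wt and 853648 bp in wt+TNFα, or 11.9% and 28.8% of an annotated span that reaches far past neighbouring genes (chr7:130162451-133123350), so not all of it may belong to the gene. Its promoter went the other way, with 17.5% covered in wt and 0% in wt+TNFα. Grik4, a kainate receptor subunit, had 22.7% and 74.2% of its body covered, and its promoter 50% and 100%. Kif26b, a kinesin-like protein, had 22.4% and 73.8%, and Dscaml1, a neuronal adhesion molecule, 16.7% and 75.8%. Thsd4 and Nckap5 were nearly bare in wt, at 0.859% and 0.335%, and had 34.6% and 19.4% covered in wt+TNFα. Camta1, Asic2, Hpse2 and Frmd4a completed the first 10.

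The 10 gene bodies with the largest losses included Vav2 (81.1% and 6.01%) and Fam20c (97.2% and 0%). Gcnt2 (chr13:40859754-40960892), which makes branched I antigen glycans, had 69.2% of its body covered in wt and 11.8% in wt+TNFα. Its promoter had 66.97% and 0%, with an H3K4me3 share of 0% and 26.8%. Map6, a microtubule-stabilizing protein, had 53.6% and 1.18% of its body covered and an H3K4me3 share at the promoter of 0% and 46.4%, and Neurl1a, a ubiquitin ligase, 59.2% and 20.7% with 0% and 24.97%. Svil, Map4k4, Nbea, Syt7 and Camk2a also belonged to them. Of 50 long genes for neuronal adhesion proteins and channels, 37 had more body covered in wt+TNFα and 7 less, against 26.8% and 4.003% of all protein-coding genes, whose bodies were not matched for length. The covered shares were small, with a median of 0.149% (wt) and 0.392% (wt+TNFα), and none had a gain or a loss at the promoter. Slit3, a guidance ligand, lay far above these medians, with 6.8% and 26.2% of its body covered and a promoter share of 50% in both.

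Large gene families were counted against the same 3.89% and 0.514% of all protein-coding genes. For the counts at equal covered length, the background is 243 gains and 338 losses among all 20807 protein-coding genes. Of 1128 olfactory receptor genes, 53 had promoter H3K27me3 in wt and 121 in wt+TNFα, with 44 gains (3.90%) and 1 loss, but with 4 gains and 10 losses at equal covered length. The loss was Olfr94, with 100% and 20.1%. Of 110 keratin and keratin-associated protein genes, 49 and 51 were covered, but with 13 gains (11.8%) and 8 losses (7.27%). Krt6b, a keratin of stressed epidermis, had 0% and 100%, and Krt4, a keratin of stratified mucosa, 100% and 0%. At equal covered length this family had 8 gains and 15 losses. Keratin genes lie in clusters and share domains, so they are not separate cases. Of 358 solute carrier genes, 114 and 139 were covered, with 19 gains (5.31%) and 2 losses, or 10 and 9 at equal covered length. Of 404 zinc finger genes, 43 and 51 were covered with 3 gains (0.743%) and 2 losses, or 0 and 3 at equal covered length. Of 67 histone cluster genes 2 were covered in each list.

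Among other gene types, against 5.09% gains and 0.537% losses over all autosomal genes, lincRNA genes had 428 gains (8.22% of 5209) and 49 losses (0.941%), and processed pseudogenes 565 gains (6.33%) and 37 losses (0.415% of 8924). Of 34 imprinted genes, 15 and 17 were covered, with 1 gain and 1 loss, or 0 gains and 1 loss at equal covered length. The gain was Slc22a2, an organic cation transporter (0% and 100%), and the loss was Ascl2. H19, a maternally expressed RNA, had 58.0% and 100%.

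At the scale of 1 Mb the largest excess in wt+TNFα lay at chr1:90000001-91000000, with 155.6 kb in wt and 617.3 kb in wt+TNFα, where Asb18, Ackr3 and Col6a3 start. Next were chr6:53000001-54000000 (171.4 and 593.3 kb), with Jazf1 and Creb5, and chr1:88000001-89000000 (111.9 and 526.6 kb), which holds the Ugt1a genes of glucuronidation. The largest deficit was smaller by far. At chr6:135000001-136000000, with Gprc5a and Emp1, 241.9 kb were covered in wt and 207.2 kb in wt+TNFα. At chr13:40000001-41000000, with Tfap2a and Gcnt2, the values were 165.1 and 135.6 kb, and at chr1:69000001-70000000, with Erbb4 and Ikzf2, 54.8 and 28.6 kb. At chr7:124000001-125000000, where no protein-coding gene starts, 18.3 kb were covered in wt and 0 in wt+TNFα.

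The sequence under the mark, which the choice of members did not use, differed between the classes of bases. GC content was 48.1% in shared bases, 46.2% in bases of wt alone and 45.3% in bases of wt+TNFα alone, against 41.9% over all autosomes. CpG numbered 15.6 per kb in shared bases, 11.8 in wt alone and 10.2 in wt+TNFα alone, against 8.51. Bases masked as repeats made up 21.6%, 24.0% and 26.2%, against 33.5%. The filters on mapped reads and blacklisted regions bear on which bases can be called, and their part was not tested. At promoters the ratio of observed to expected CpG had a median of 0.468 where the mark was whole in both lists, 0.282 at losses and 0.221 at gains, against 0.250 over all autosomal genes. A ratio of at least 0.6 was found at 31.6% of promoters whole in both, 10.5% at losses and 1.84% at gains, against 8.87% of all.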

How the data were processed

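H3K27me3 ChIP-seq was available from 1 wt and 1 wt+TNFα library of colonic organoids. Per the labels, the reads were aligned to GRCm38/mm10 with BWA 2.2, processed with SAMtools 1.11 and called as peaks with MACS2 2.1.0. The authors called broad peaks against the input of each condition. The H3K27me3 libraries had nearly equal read totals, whereas the wt input had fewer reads than the wt+TNFα input, and the part of this in the peak calls was not tested. In the deposited lists the fold enrichment is a ratio over local background, and significance is the −log10 of the p-value and q-value. Each is 1 value for a whole peak. The deposited display score was not used. The deposited positions, counted from 0, were turned to 1-based ones. The name of the wt list mentions a spike-in and that of the wt+TNFα H3K27me3 list does not, and no scaling was applied here. Whether the lists were scaled differently is not given in the sources used here. No peaks of a list touched, so each peak is 1 domain.

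Covered length was counted by base in Python 3.11.15 (numpy 2.4.6, figures with matplotlib 3.10.9). Genes came from GENCODE M21 (GRCm38), with promoters as the union of 1000 bp on each side of all transcript starts, bodies as the rest of genes, and intergenic space as the remainder. Domains were linked by an overlap of 1 bp. Genes were named by rank of the covered share, ties by fold enrichment, without Gm and Rik symbols. Some items that the rule names are not reported here. Members and lists were chosen with earlier results of these data known. Alternative cutoffs on q and fold enrichment, gaps, overlaps, promoter widths and gene sets were tried, as the closing section gives. The steps were tested on simulated lists. With 1 library a side there is no test, and the precision of a value is unknown. No H3K27me3 or H3K4me3 peak lay in 315 autosomal stretches of at least 1 Mb (27.5% of the autosomes), whose 1713 protein-coding genes (8.23%) count as bare, and the reads there were not analysed here.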

Additional observations from a re-analysis of the deposited data

Results flagged for a closer look

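Chromosome X lay outside the autosomal comparison. Its length under H3K27me3 was 0.597 Mb in the wt list but 74.7 Mb in the wt+TNFα list, a ratio of 125.0 against 2.25 on the autosomes, and the peaks there numbered 247 and 11578. The value was singled out because it is a signal above the untreated library in data outside the autosomal comparisons. In the H3K4me3 lists, 3 peaks lay on chromosome Y in wt and 0 in wt+TNFα. The part of this in the autosomal values was not tested.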

How the results depend on the processing

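Leaving out a replicate was not possible with 1 library a side, and no paired analysis was possible because the labels give no replicate numbers. A ratio, percentage or count was taken as kept when it lay within 1.5 times the value reported above. At equal covered length, for which 7641 wt+TNFα peaks (15.6%) were retained, the autosomal ratio was 1.00 by construction, and the ratios were 0.979 for promoters, 1.04 for gene bodies and 0.969 for intergenic space. There the median width ratio was 4.93, since the retained peaks are wide (median 8770 bp), 2617 domains joined wt domains and 114 wt domains were split, and 737 genes had a gain and 868 a loss. With a −log10 q of at least 2 in both lists, the intergenic ratio was 4.02, 204 domains joined and 79 were split, and 114 genes had a loss. With the more significant 50% of each list's peaks, 2118 joined and 290 were split. With a fold enrichment of at least 2, the median width ratio was 2.72, 222 were split, and 1465 genes had a gain and 466 a loss. With equal numbers of peaks the median width ratio was 2.10. With peaks closer than 5000 bp joined, 2799 domains joined and 208 were split, and 241 were split when an overlap of 50% of the shorter domain was required. Protein-coding genes alone had 810 gains and 107 losses, and promoters of 2000 bp on each side 149 losses. At 25 points, an alternative chosen after seeing the data like that of 75 points, 4489 genes had a gain and 563 a loss, and at 75 points 1414 and 123. Causes beyond the smaller lists were not tested. Joining outnumbered splitting under every alternative that gave both, from 2.58 to 22.96 times, and gains outnumbered losses under all except equal covered length. The highest of these, 22.96, was at equal covered length, where 7641 wide wt+TNFα peaks are set against all wt peaks. A list of wider peaks favours joining by itself, so these alternatives are no separate evidence of it. The share of wt bases also covered in wt+TNFα lay between 62.1% and 92.6% over 5 alternatives. The depth behind a peak is not given in the lists, so a bare promoter is one without a called peak, not one shown to lack the mark.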
